A study of Mus musculus with 4 samples.

Results

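The lysosomal hydrolases and the proton pump that acidifies the lysosome were examined as 41 named genes among the 49993 gene symbols with a count in the 4 deposited tables. The genes were taken by symbol and all 41 were found. They comprise 19 hydrolases (9 glycosidases, 4 sulfatases, 5 lipid hydrolases and 1 protease), 12 subunits of the vacuolar H+-ATPase (5 of the membrane-embedded V0 sector, 5 of the cytosolic V1 sector and 2 accessory subunits), and 10 further genes, of which 3 encode soluble cofactors and 7 encode lysosomal membrane proteins. The RNA-seq libraries came from bulk CD11b+ microglia (the brain's own macrophages), which had been sorted magnetically from brains of mice aged 10 months. Both groups carried the APP/PS1 transgenes, under which amyloid accumulates, a common model of Alzheimer's disease. The AD group (2 libraries) was asrij+/+ and the AD/KO group (2 libraries) was asrij-/-, by constitutive deletion of asrij, the gene Ociad1. Every value here thus comes from mice with the transgenes. The labels do not say whether the replicates were separate mice or pools, so that p-values measure only the spread between these libraries, which may be technical.

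Lysosomes are acidic organelles that break down material taken up from outside the cell or delivered by autophagy. The hydrolases work at low pH, and each cuts a particular kind of bond in glycans, lipids or proteins. The vacuolar H+-ATPase pumps protons into the lumen at the cost of ATP, and many cell types, neurons included, also use it to acidify secretory and synaptic vesicles. In microglia the lysosome degrades phagocytosed debris and amyloid. Loss of many of these hydrolases or cofactors causes an inherited lysosomal storage disease.

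The libraries held from 13102622 to 19810076 counts, so that a level of 1 on the counts-per-million (CPM) scale corresponded to 13.8 to 19.2 reads, and intervals from counts cover counting error only. Values below are given for replicate 1 and then replicate 2 of a group, as CPM after TMM scaling. Of the 41 genes, 40 passed the filter on low counts, with 111 to 44121 reads per library. The cell type check used 15 microglial markers, which were detected in every library and had a mean log2 CPM of 9.70 and 9.25 in the AD libraries and 9.62 and 7.88 in the AD/KO libraries. Neuron markers (14 genes) had means of 4.29 and 5.99 in AD and 5.79 and 7.36 in AD/KO, and astrocyte markers (12 genes) had means of 5.46 and 6.78 in AD and 6.92 and 8.19 in AD/KO. Oligodendrocyte markers (12 genes) had means of 5.41 and 6.47 in AD and 6.12 and 6.81 in AD/KO. AD/KO replicate 2 thus had the lowest microglial and the highest neuronal, astrocytic and oligodendrocyte marker mean of the 4 libraries. The oligodendrocyte markers were split, as Mog, Mag, Sox10, Opalin and Ermn were highest in AD replicate 2 and the rest in AD/KO replicate 2. Markers of monocytes and border macrophages (11 genes) followed the labels, with means of 3.27 and 3.74 in AD and 2.45 and 2.14 in AD/KO. For 8 of the 11 the groups did not overlap, with AD/KO the lower (21.7% of all genes tested). Astrocyte markers also followed the labels, as for 11 of the 12 the groups did not overlap, with AD/KO the higher (20.3% of all genes tested). This held for 3 of the 14 neuron markers and 4 of the 12 oligodendrocyte markers. AD replicate 2 stood apart in its neutrophil markers, with a summed level of 4722 CPM against 368 to 567 CPM in the other libraries, and in Xist, with 1391 reads against 3 to 15. Ociad1, the gene named as deleted, was at 50.2 and 63.4 CPM in AD and at 38.9 and 32.1 CPM in AD/KO, and it had a log2 fold change of −0.68 (SE 0.29; adjusted p = 0.680, edgeR quasi-likelihood, Benjamini-Hochberg). It was −0.43 without AD replicate 2. Its reads were fewer in AD/KO but not lost. AD/KO below therefore means a library that carries that label, and each direction is a difference between labels.

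The pump and the hydrolases differed in how they varied over the 4 libraries. The summed level of the 12 pump genes was 1046 and 978 CPM in AD and 1016 and 904 CPM in AD/KO. The summed level of the 19 hydrolases was 3359 and 2722 CPM in AD and 3325 and 1582 CPM in AD/KO. The pump thus stayed within a narrow range in all 4 libraries, while the hydrolases were low in AD/KO replicate 2. The 10 cofactors and membrane proteins followed the hydrolases, with 6800 and 4977 CPM in AD and 6164 and 3166 CPM in AD/KO. Relative to the mean of the AD libraries, the median hydrolase stood at 95.04% in AD/KO replicate 1 and at 46.9% in the other AD/KO library. The median of the 11 pump subunits tested stood at 96.5% and 96.6%, and that of the cofactors and membrane proteins at 99.7% and 51.7%. In AD/KO replicate 2, 10 of 19 hydrolases and 5 of 10 cofactors and membrane proteins lay below 50% of the AD mean, as did 0 of 11 pump subunits. Of the 21435 genes tested that had reads in AD, 5004 lay below 50% there. For comparison, the median of 14 microglial markers in that library stood at 31.7% (23.6% to 43.5%), that of the neuron markers at 400% and that of all genes tested at 92.8%. The part of cell composition in these levels was not tested, and in bulk samples fewer microglia and less lysosomal RNA per microglial cell cannot be told apart.

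**Figure D1:**
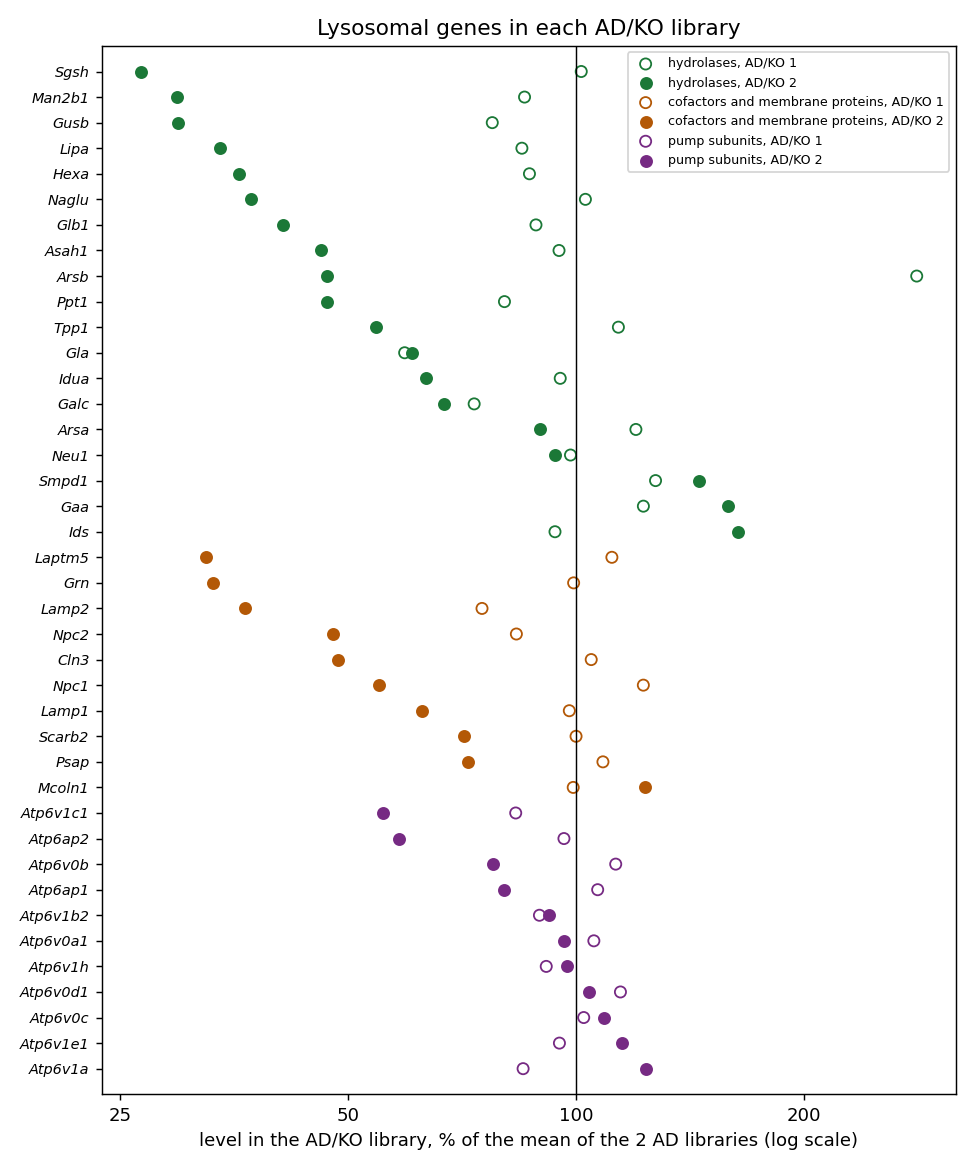
Level of each of the 40 genes tested in AD/KO replicate 1 (open circles) and AD/KO replicate 2 (filled circles), as a percentage of the mean of the 2 AD libraries, on a log axis, with hydrolases in green, cofactors and membrane proteins in orange and pump subunits in purple. In AD/KO replicate 2 the hydrolases range from 26.7% (Sgsh) to 164% (Ids) and the pump subunits from 55.6% (Atp6v1c1) to 124% (Atp6v1a), while in AD/KO replicate 1 Arsb stands alone at 282%.

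Between groups, 0 of the 40 genes passed the threshold (edgeR's quasi-likelihood test, Benjamini-Hochberg adjusted p under 0.05), and 0 had an unadjusted p under 0.05. Over all 21439 genes tested 0 passed as well (percent called: 0), and at an unadjusted p under 0.05, 2.30% were lower and 2.70% higher in AD/KO. DESeq2 also called 0 of the 40, where it called 0.440% of the genes it tested. With replicate number fitted as a block in edgeR, a pairing that the labels do not state, 3 of the 40 passed as lower (6.79% of all genes) and 0 as higher (13.4% of all genes). The log2 fold change was below 0 in 14 of 19 hydrolases, 9 of 10 cofactors and membrane proteins and 6 of 11 pump subunits, where 52.8% of all genes tested were below 0. AD/KO replicate 2 was the lowest library in 14 hydrolases, 9 cofactors and membrane proteins and 4 pump subunits (42.4% of all genes). The median log2 fold change was −0.51 for the hydrolases, −0.35 for the cofactors and membrane proteins and −0.07 for the pump, against −0.05 for all genes. The groups did not overlap, with AD/KO the lower, in 8 hydrolases, 2 cofactors and membrane proteins and 2 pump subunits (21.7% of all genes), and with AD/KO the higher in 2, 0 and 1 (20.3% of all genes). Without AD/KO replicate 2 the medians were −0.06, 0.0065 and −0.04. Without AD/KO replicate 1 they were −1.04, −0.90 and 0.0020. The lower medians of the hydrolases and of the cofactors and membrane proteins therefore rested on 1 of the 2 AD/KO libraries, and the difference between the pump and the hydrolases was not tested.

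**Figure D2:**
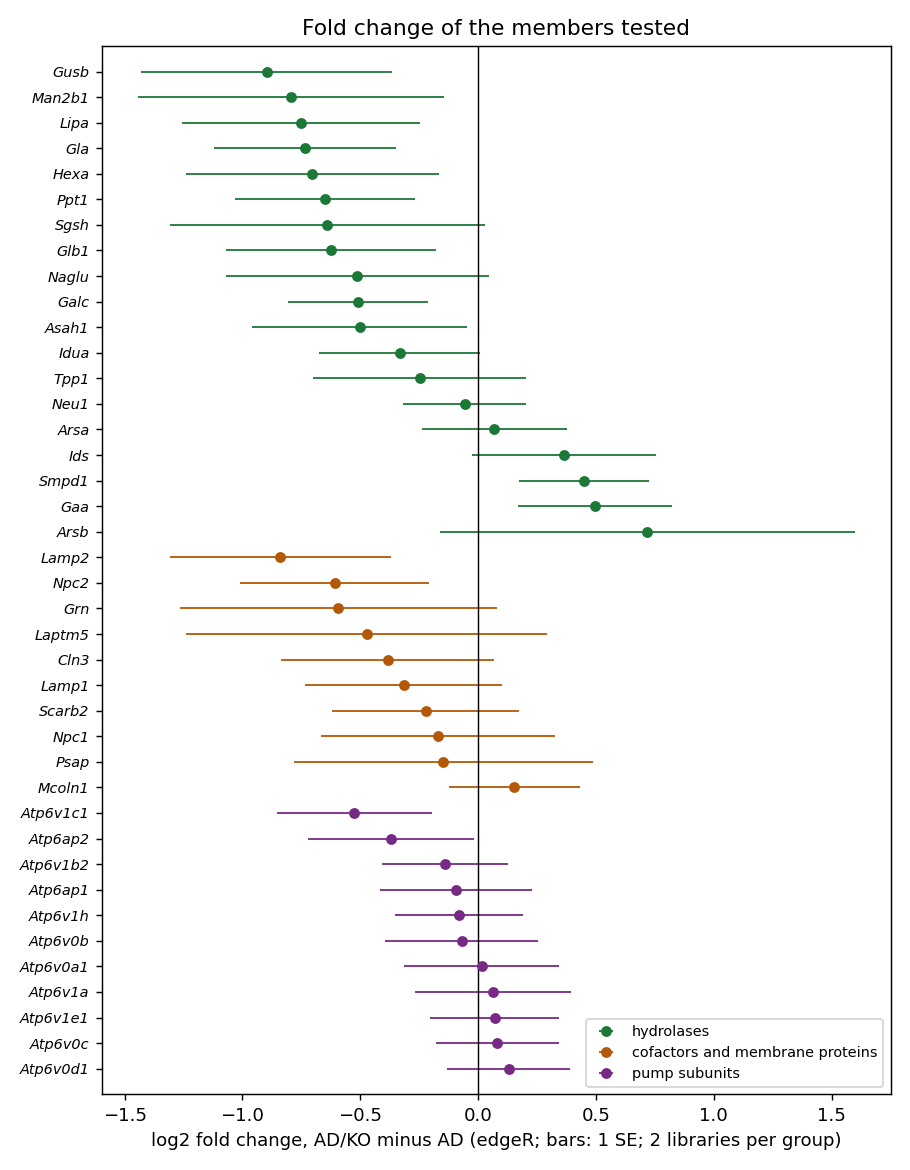
Log2 fold change (AD/KO minus AD, edgeR) of the 40 genes tested, with bars of 1 SE and 2 libraries per group. Hydrolases (green) spread from −0.90 for Gusb to 0.72 for Arsb, and pump subunits (purple) from −0.53 for Atp6v1c1 to 0.13 for Atp6v0d1.

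The lists can also be read beside the marker levels of each library. The hydrolases had a mean log2 CPM of 6.71 and 6.47 in AD and 6.59 and 5.78 in AD/KO. The pump subunits had means of 6.32 and 6.25 in AD and 6.26 and 6.12 in AD/KO. AD replicate 2 and AD/KO replicate 1 had like levels of the neuron and astrocyte markers combined (6.36 and 6.31), and in these the hydrolases were at 6.47 and 6.59 and the pump at 6.25 and 6.26. The same libraries differed in the microglial markers (9.25 and 9.62) and the neutrophil markers (7.28 and 3.86). They also differed in Arsb, one of the hydrolases (227 and 791 CPM). When the libraries were scaled to a list of homeostatic microglial genes, the median over all genes was a log2 fold change of 0.73, that of the pump was 0.77, that of the hydrolases 0.07 and that of the cofactors and membrane proteins 0.25. This scaling raised the median over all genes from −0.05 to 0.73, but single genes moved unequally. Arsb went from 0.72 to 0.92 and Ids from 0.36 to 1.35. A sign above 0 on that scale is therefore not particular to a gene. On it 11 of 11 pump subunits and 11 of 19 hydrolases lay above 0, as did 17096 of the 21439 genes tested. With neuron and astrocyte marker level as a covariate the medians were 0.0056 for hydrolases, 0.03 for the pump and 0.24 for cofactors and membrane proteins, against 0.0034 for all genes. That fit adds a term to a model on only 4 libraries. The covariate was at 4.83 and 6.36 in AD and at 6.31 and 7.74 in AD/KO. It partly follows the labels, so that its effect and that of the label are hard to tell apart. The part of cell composition was not tested.

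**Figure D3:**
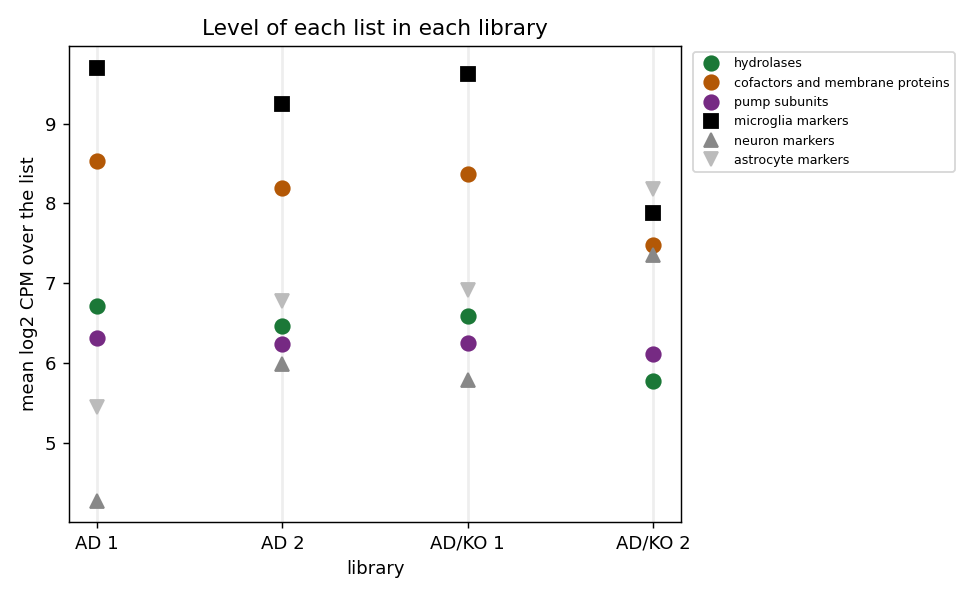
Mean log2 CPM of the hydrolases, the cofactors and membrane proteins, the pump subunits and the microglia, neuron and astrocyte markers (vertical axis) in each of the 4 libraries (horizontal axis), 1 point per list and library. The pump stays between 6.12 and 6.32, the hydrolases lie between 6.71 in AD replicate 1 and 5.78 in AD/KO replicate 2, and the neuron markers run from 4.29 to 7.36 between the same libraries.

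Many lysosomal genes carry an E-box variant known as the CLEAR element, which the transcription factor Tfeb and its relatives bind. RefSeq windows for GRCm38.p6 (250 bases before to 50 after a listed start) were found for 35 of the 41 genes, with 39 windows in all because some genes have several starts, and both strands were searched. The letters TCACGTG were in the window of 12 of these genes (34.3%), namely 6 of 18 hydrolases, 3 of 9 cofactors and membrane proteins and 3 of 8 pump subunits, against 4.29% of 27025 genes with a window. The longer palindrome TCACGTGA, which contains the shorter run, was found in 5 of the 35 (14.3%) against 1.12% of all. It was in 1 of 18 hydrolases (Gla), 2 of 9 cofactors and membrane proteins and 2 of 8 pump subunits. The matches to it are shown because each of these lists holds it, the hydrolases through Gla alone, although the levels of the lists differed in the libraries. The windows are read 5′ to 3′ on the strand of the gene, with the palindrome in capitals. The distance is from its first base to the start listed for that window. For Cln3 and Atp6v1a this start lies inside the span given for the gene, downstream of its outermost start. In Atp6v0d1 the palindrome runs across the start.
Cln3, chr7:126583340-126583369, minus strand, 122 bases before the start: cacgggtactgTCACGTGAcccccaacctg
Mcoln1, chr8:3500462-3500491, plus strand, 46 bases before the start: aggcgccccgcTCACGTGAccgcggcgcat
Atp6v0d1, chr8:105566050-105566079, minus strand, 4 bases before the start: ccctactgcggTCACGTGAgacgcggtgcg
Atp6v1a, chr16:44139373-44139402, minus strand, 132 bases before the start: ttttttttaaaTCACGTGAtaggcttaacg
Gla, chrX:134601215-134601244, minus strand, 228 bases before the start: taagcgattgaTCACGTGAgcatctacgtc
Gla, chrX:134601182-134601211, minus strand, 195 bases before the start: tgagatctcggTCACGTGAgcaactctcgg
The 5 genes did not share a direction. Gla and Cln3 had log2 fold changes of −0.73 and −0.38, and Mcoln1, Atp6v0d1 and Atp6v1a of 0.15, 0.13 and 0.06. A match of letters is a description of the window and says nothing of binding in these cells.

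The glycosidases remove terminal sugars from glycans. Man2b1, the lysosomal alpha-mannosidase, was the most abundant glycosidase per transcript length in 3 of the 4 libraries, with 257 and 199 CPM per kilobase of exon in AD and 195 and 67.8 in AD/KO. Hexa, the alpha subunit of beta-hexosaminidase, was at 439 and 369 CPM in AD and at 351 and 145 CPM in AD/KO. Both genes were lowest in AD/KO replicate 2, and AD/KO replicate 1 lay just below the lower AD library. Gusb (beta-glucuronidase, chromosome 5, 129989011 to 130003049) had the lowest log2 fold change of the 40 genes tested. It was at 209 and 169 CPM in AD and at 147 and 56.5 CPM in AD/KO, so that the groups did not overlap, and its log2 fold change was −0.90 (SE 0.53; adjusted p = 0.680, edgeR quasi-likelihood, Benjamini-Hochberg). It was −0.36 without AD/KO replicate 2 and −1.69 without AD/KO replicate 1.

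Gla (alpha-galactosidase A, chromosome X, 134588169 to 134601005) had the smallest p of the glycosidases and a different pattern. It was at 9.07 and 10.8 CPM in AD and at 5.89 and 6.02 CPM in AD/KO, and it had a log2 fold change of −0.73 (SE 0.38; adjusted p = 0.680, edgeR quasi-likelihood, Benjamini-Hochberg). Both AD/KO libraries were low here, at 59.4% and 60.8% of the AD mean, and near each other. The monocyte and border macrophage markers were also low in both AD/KO libraries, and most astrocyte markers were higher in both. The part of these cells in this result, as in those for Galc and Cd63 below, was not tested. Gla is also the lowest of the hydrolases per length in every library. Glb1, the beta-galactosidase, was at 58.7 and 48.4 CPM in AD and 47.4 and 22.0 CPM in AD/KO, with no overlap but with AD/KO replicate 1 close to AD replicate 2. Naglu, which acts on heparan sulfate, was at 100.02 and 67.6 CPM in AD and 86.3 and 31.1 CPM in AD/KO. Idua, the alpha-iduronidase, was at 66.3 and 50.4 CPM and at 55.7 and 37.0 CPM. The groups overlapped for both of these genes. Neu1, the lysosomal sialidase, hardly varied, at 42.9 and 41.1 CPM in AD and 41.3 and 39.4 CPM in AD/KO. Gaa, the acid alpha-glucosidase that degrades lysosomal glycogen, was higher in AD/KO, at 153 and 152 CPM in AD and 187 and 243 CPM in AD/KO. It was the only glycosidase with both AD/KO libraries above both AD libraries, with a log2 fold change of 0.50 (SE 0.33) that did not pass the threshold.

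The sulfatases remove sulfate groups from glycosaminoglycans and sulfolipids, and the 4 of them showed 4 patterns. Sgsh (heparan N-sulfatase, chromosome 11, 119343489 to 119355510) had the smallest p of the 4. It was at 66.3 and 47.8 CPM in AD and at 58.0 and 15.2 CPM in AD/KO, and it had a log2 fold change of −0.64 (SE 0.67; adjusted p = 0.733, edgeR quasi-likelihood, Benjamini-Hochberg). AD/KO replicate 1 lay between the AD libraries. Leaving out AD/KO replicate 2 or 1 gave a log2 fold change of 0.03 or −1.86, and leaving out AD replicate 1 gave −0.38. The neighbouring gene Card14 overlaps 21.9% of the Sgsh exons on the other strand and had 17 to 41 reads per library. Arsa, the arylsulfatase that acts on sulfatide, was at 49.3 and 39.5 CPM in AD and 53.3 and 39.8 CPM in AD/KO, with overlapping groups. The antisense gene C230037L18Rik covers 19.8% of the Arsa exons on the other strand, and whether the counting used strand is not given in the sources used here. Ids, the iduronate sulfatase, was at 109.7 and 129.9 CPM in AD and 113 and 196 CPM in AD/KO, so that AD/KO replicate 2 was the highest library.

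Arsb (arylsulfatase B, which acts on dermatan and chondroitin sulfate; chromosome 13, 93771679 to 93943016) had the highest log2 fold change of the 40 genes tested, and it rested on 1 library. It was at 334 and 227 CPM in AD and at 791 and 131 CPM in AD/KO, with 4606, 3687, 15180 and 2422 reads in that order. AD/KO replicate 1 was the highest and AD/KO replicate 2 the lowest of the 4 libraries. The log2 fold change was 0.72 (SE 0.88; adjusted p = 0.766, edgeR quasi-likelihood, Benjamini-Hochberg), with −1.04 when AD/KO replicate 1 was left out and 1.51 when AD/KO replicate 2 was. Arsb in AD/KO replicate 1 was 2.37 times the next highest library. Of 4643 genes with a mean of at least 50 CPM, 6 were at least 2 times above the next highest library in AD/KO replicate 1, and the other 5, named here after their values were seen, were the small structural RNAs Rn7s2, Rny1, Snord17, Gm22513 and Rn7sk. Rn7s2, a 7SL RNA, was at 162 and 250 CPM in AD and at 2361 and 417 CPM in AD/KO. For the 10 other genes with reads within 500 kb of Arsb, AD/KO replicate 1 stood at 0.380 to 0.860 times the next highest library. In GENCODE M21 the non-coding gene Gm26527 overlaps 48.2% of the Arsb exons on the other strand, and the strand setting of the counting is not given in the sources used here, so that the reads of the pair cannot be told apart. The part of structural RNAs or of the overlapping gene in the Arsb count was not tested. Without Arsb, the summed level of the hydrolases was 3025 and 2496 CPM in AD and 2533 and 1450.3 CPM in AD/KO. The pump then amounted to 34.6% and 39.2% of the hydrolases in AD and to 40.1% and 62.4% in AD/KO.

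Among the lipid hydrolases, Galc (galactosylceramidase, chromosome 12, 98202287 to 98259459), which degrades a main myelin lipid, had the smallest p. It was at 61.5 and 45.1 CPM in AD and at 39.2 and 35.8 CPM in AD/KO, and it had a log2 fold change of −0.51 (SE 0.30; adjusted p = 0.680, edgeR quasi-likelihood, Benjamini-Hochberg). Both AD/KO libraries were below both AD libraries and, as for Gla, near each other. Leaving out AD replicate 1 gave a log2 fold change of −0.28. Lipa, the acid lipase that frees cholesterol from its esters, was at 84.7 and 64.9 CPM in AD and 63.5 and 25.3 CPM in AD/KO. Ppt1, the thioesterase that removes palmitate from proteins, was at 173 and 149.8 CPM in AD and 129.97 and 75.8 CPM in AD/KO. Neither gene overlapped between the groups, but for Lipa AD/KO replicate 1 lay close to AD replicate 2. Asah1, the acid ceramidase, was at 196 and 149.7 CPM in AD and 164 and 79.5 CPM in AD/KO. Smpd1, the acid sphingomyelinase that makes the ceramide which Asah1 degrades, was higher in AD/KO, at 28.4 and 32.6 CPM in AD and 38.9 and 44.4 CPM in AD/KO, with no overlap and a log2 fold change of 0.45 (SE 0.28) that did not pass the threshold. The protease Tpp1, which cleaves tripeptides from the ends of proteins, was at 196 and 168 CPM in AD and 207 and 99.2 CPM in AD/KO.

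The soluble cofactors assist the hydrolases or carry lipids for them. Psap, the precursor of the saposins that present lipids to hydrolases, ranked first of the 41 genes per length in both groups, with 894 and 649.8 CPM per kilobase of exon in AD and 838 and 556 in AD/KO. Grn, the precursor of lysosomal granulins, was at 919 and 599.5 CPM in AD and 754 and 252 CPM in AD/KO. Their groups overlapped, but AD/KO replicate 2 held 72.0% of the AD mean of Psap and 33.2% of that of Grn. Npc2 (chromosome 12, 84754559 to 84773112), which hands cholesterol to Npc1, had the smallest p of the 3 cofactors. It was at 244 and 227 CPM in AD and at 196 and 112 CPM in AD/KO, and it had a log2 fold change of −0.61 (SE 0.40; adjusted p = 0.680, edgeR quasi-likelihood, Benjamini-Hochberg), with no overlap. Leaving out AD/KO replicate 2 or 1 gave −0.25 or −1.01.

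Lamp2 (chromosome X, 38399647 to 38456460), a main glycoprotein of the lysosomal membrane, had the smallest p of the 7 membrane proteins. It was at 318 and 257 CPM in AD and at 216 and 105 CPM in AD/KO, and it had a log2 fold change of −0.84 (SE 0.47; adjusted p = 0.680, edgeR quasi-likelihood, Benjamini-Hochberg). It was the only one of the 7 with no overlap between groups, but the log2 fold change was −0.40 without AD/KO replicate 2 and −1.40 without AD/KO replicate 1. Its relative Lamp1 was at 464 and 432 CPM in AD and at 439 and 281 CPM in AD/KO, so that AD/KO replicate 1 lay between the AD libraries. Laptm5, a membrane protein of immune cells, was second per length in both groups and had a wide gap within AD/KO, at 1677 and 1130.5 CPM in AD and 1567 and 456 CPM in AD/KO. Npc1, the cholesterol exporter, was at 252 and 189 CPM and at 271 and 121 CPM. Cln3, a transmembrane protein mutated in juvenile Batten disease, was at 71.3 and 55.3 CPM and at 66.3 and 30.7 CPM. Scarb2, the receptor that carries glucocerebrosidase to lysosomes, was at 344 and 247 CPM in AD and 296 and 211 CPM in AD/KO. In these 5 genes AD/KO replicate 2 was again the lowest library. Mcoln1, the lysosomal calcium channel, differed from them, at 57.9 and 57.3 CPM in AD and 57.2 and 71.1 CPM in AD/KO.

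The V0 sector of the pump holds the proton path. Atp6v0a1, its largest subunit, was at 259 and 228 CPM in AD and 257 and 235 CPM in AD/KO. The proteolipid Atp6v0c was at 50.3 and 46.3 CPM in AD and 49.5 and 52.6 CPM in AD/KO, and its count is uncertain because the pseudogenes Atp6v0c-ps1 and Atp6v0c-ps2 match it at 97.2% and 99.8% identity over 465 bases. The related proteolipid Atp6v0b was at 109 and 97.2 CPM in AD and 117 and 80.3 CPM in AD/KO. In these 3 genes the groups overlapped. Atp6v0d1 (chromosome 8, 105524461 to 105566064), which couples V0 to the rotor of V1, had the smallest p of the V0 genes. It was at 50.4 and 51.0 CPM in AD and at 58.1 and 52.8 CPM in AD/KO, which gave a log2 fold change of 0.13 (SE 0.26; adjusted p = 0.850, edgeR quasi-likelihood, Benjamini-Hochberg), with both AD/KO libraries above both AD libraries. Leaving out replicate 2 of AD/KO or of AD gave 0.21 or 0.20.

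Atp6v0d2, an isoform of the same subunit known from osteoclasts and macrophages, was the 1 gene of the 41 that did not pass the filter. Its reads numbered 6 and 6 in AD, and 1 and 0 in AD/KO. Scaled to depth, AD/KO stood at 0.0666 times AD, with an exact 95% interval of 0.00156 to 0.450 that covers counting error only. Both groups held only traces of this isoform, which did not enter the test.

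The V1 sector hydrolyses ATP. Its catalytic subunit Atp6v1a was at 59.8 and 76.4 CPM in AD and at 58.0 and 84.4 CPM in AD/KO, and its partner Atp6v1b2 was at 99.1 and 97.3 CPM and at 87.9 and 90.4 CPM. Atp6v1b2 varied little, though both AD/KO libraries were the lower ones. The stalk subunit Atp6v1e1 was at 49.9 and 53.9 CPM and at 49.4 and 59.6 CPM, and the regulatory subunit Atp6v1h at 34.2 and 30.5 CPM and at 29.6 and 31.5 CPM, each with overlap. Atp6v1c1 (chromosome 15, 38661904 to 38692444), which controls the assembly of V1 onto V0, departed from the other V1 genes. It was at 93.1 and 79.2 CPM in AD and at 71.8 and 47.9 CPM in AD/KO, and it had a log2 fold change of −0.53 (SE 0.33; adjusted p = 0.680, edgeR quasi-likelihood, Benjamini-Hochberg), with no overlap. Leaving out AD/KO replicate 2 or 1 gave −0.25 or −0.79. The accessory subunit Atp6ap2 (chromosome X, 12587759 to 12617051), also called the prorenin receptor, was at 71.7 and 62.2 CPM in AD and at 64.6 and 39.1 CPM in AD/KO, and it had a log2 fold change of −0.37 (SE 0.35; adjusted p = 0.718, edgeR quasi-likelihood, Benjamini-Hochberg), with overlapping groups. It was −0.04 without AD/KO replicate 2 and −0.72 without AD/KO replicate 1. The pseudogene Gm36448 matches it at 98.4% identity over 438 bases, so that its count is uncertain. The other accessory subunit, Atp6ap1, was at 169 and 156 CPM and at 174 and 131 CPM. Of the 5 genes on chromosome X (Gla, Ids, Lamp2, Atp6ap1 and Atp6ap2), Gla alone had its highest level in AD replicate 2, the library with Xist reads, and the other 4 had neither their highest nor their lowest level there.

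The other subunits of the pump, from a list of 13 further genes, showed where isoforms differed. Of the 10 that passed the filter, 3 were lower (52.8% of all genes tested) and 7 higher in AD/KO. Their median log2 fold change was 0.08, and 0 had an unadjusted p under 0.05 (edgeR's quasi-likelihood test). The groups did not overlap in 4 that were higher (20.3% of all genes tested) and 1 that was lower (21.7% of all genes tested). The a subunit exists as several isoforms, and Tcirg1, the a3 isoform of macrophage and osteoclast lysosomes, was at 365 and 228 CPM in AD and 328 and 110 CPM in AD/KO. Per length Tcirg1 was at 172%, 122% and 156% of Atp6v0a1 in the first 3 libraries and at 57.3% in AD/KO replicate 2, so that the isoforms were in the opposite order in that library. Atp6v0a2 was at 204 and 133 CPM in AD and 206 and 134 CPM in AD/KO. Atp6v0a4 had at most 0.218 CPM in any library and Atp6v1e2 had 0 reads in every library, while Atp6v1b1 and Atp6v1c2 had at most 1.30 and 2.66 CPM.

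Subunits e and G also exist as isoforms, and these differed in pattern. Atp6v0e was at 22.1 and 21.5 CPM in AD and at 20.6 and 13.3 CPM in AD/KO, with no overlap and the smallest p among the lower genes of the list (log2 fold change −0.36). Atp6v0e2 was at 7.26 and 18.7 CPM in AD and at 21.5 and 55.7 CPM in AD/KO, and it had a log2 fold change of 1.57. Atp6v1g1 was level in all libraries, at 39.7 and 44.7 CPM in AD and at 41.2 and 42.1 CPM in AD/KO. Its isoform Atp6v1g2, known as the G subunit of neurons, was at 16.3 and 24.0 CPM in AD and at 28.6 and 53.6 CPM in AD/KO, and it had the smallest p among the higher genes (log2 fold change 1.03). Per length Atp6v1g2 was at 24.8% and 32.5% of Atp6v1g1 in AD, and at 42.1% and 77.3% in AD/KO. The neuron markers had their lowest summed level in AD replicate 1 (660 CPM) and their highest in AD/KO replicate 2 (5072 CPM), with 2045 and 1660 CPM in AD replicate 2 and AD/KO replicate 1. Without AD/KO replicate 2 the log2 fold changes were 0.74 for Atp6v0e2, 0.52 for Atp6v1g2 and −0.07 for Atp6v0e, and with the neuron and astrocyte covariate they were 0.24, 0.28 and −0.08. That covariate partly follows the labels, and the part of neurons in these values was not tested.

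**Figure D4:**
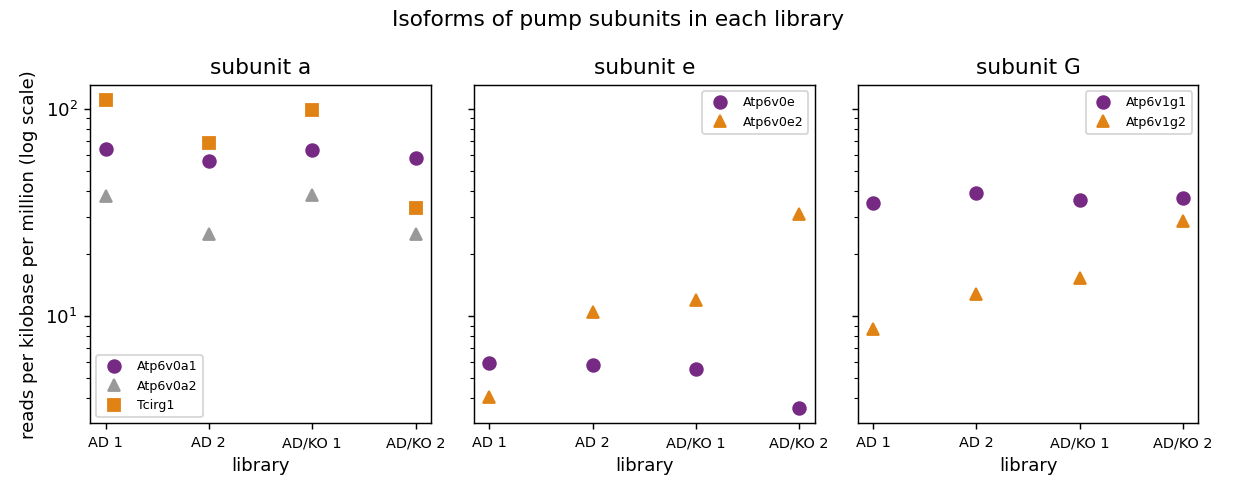
CPM per kilobase of exon (log axis) of isoforms of the pump subunits a, e and G in each of the 4 libraries, 1 point per gene and library. Atp6v0a1 and Atp6v1g1 are level, while Tcirg1 is lowest and Atp6v0e2 and Atp6v1g2 are highest in AD/KO replicate 2, where Atp6v1g2 reaches 77.3% of Atp6v1g1.

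Other lysosomal genes were read from lists that contained none of the 41. Of 25 other hydrolases and cofactors, 23 had a log2 fold change below 0 (52.8% of all genes tested) and 2 above. Their median was −0.33, and 23 were lowest in AD/KO replicate 2 (42.4% of all genes tested). With that library left out the median was 0.02, with 11 lower and 14 higher. Arsg, a sulfatase, had the smallest p among the lower genes, at 84.2 and 88.0 CPM in AD and 61.2 and 35.2 CPM in AD/KO. Its log2 fold change was −0.84, and −0.48 without AD/KO replicate 2. Hyal1, a hyaluronidase, had the smallest p among the higher genes, at 10.2 and 8.18 CPM in AD and 11.99 and 13.5 CPM in AD/KO. Of 18 other membrane proteins, 14 were lower and 4 higher, with a median of −0.40. Their median was −0.0018 without AD/KO replicate 2, with 10 lower and 8 higher. Cd63, a tetraspanin of late endosomes, was at 101 and 121 CPM in AD and at 71.4 and 65.9 CPM in AD/KO, with AD/KO libraries near each other. Laptm4b, a relative of Laptm5, was at 14.7 and 12.97 CPM in AD and at 20.5 and 20.2 CPM in AD/KO. In neither list did a gene have an unadjusted p under 0.05 (edgeR's quasi-likelihood test).

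The machinery that sorts enzymes to the lysosome had no common direction, with 7 of 13 genes lower and 6 higher in AD/KO. Its median log2 fold change was −0.21, and 52.8% of all genes tested were lower. Vps26a, a retromer subunit, was at 51.5 and 47.1 CPM in AD and 45.5 and 23.7 CPM in AD/KO, and Gnptg, a subunit of the enzyme that starts the mannose 6-phosphate tag, was at 23.6 and 48.9 CPM and at 38.3 and 81.3 CPM. The regulators of lysosomal genes had a median of −0.08, with 8 of 13 lower. Rragc and Rragd, GTPases that signal nutrient state at the lysosome, had the smallest p in each direction, with log2 fold changes of −0.58 and 0.93. Without AD/KO replicate 2 these were −0.35 and −0.07, and those of Vps26a and Gnptg were −0.11 and 0.09. Tfeb, given by choice after its values were seen, was at 100.4 and 74.7 CPM in AD and 89.1 and 53.0 CPM in AD/KO, with overlapping groups. Of these 26 genes 0 had an unadjusted p under 0.05 (edgeR's quasi-likelihood test).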

How the data were processed

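RNA was extracted with TRIzol, depleted of ribosomal RNA and made into stranded libraries, per the labels' protocols. For each library the authors deposited raw counts of reads by gene symbol, as whole numbers. The tools listed in the submitters' processing notes include HISAT2 and featureCounts, and the build is mm10. The strand setting, the annotation and the rule for multimapping reads are not given in the sources used here. The tables each had 11 broken lines without a count, which were left out and held none of the 41 genes. Depth was 13102622 to 19810076 counts per library.

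Differential expression was tested with edgeR 4.0.16 (R 4.3.3) across 21439 genes kept by filterByExpr (minimum count 10, minimum total 15), with TMM scaling, a quasi-likelihood F-test of group over the 4 libraries (no covariate), and Benjamini-Hochberg adjustment at 0.05. The SE of a log2 fold change is its size over the square root of F. The biological coefficient of variation was 44.5%. Log2 CPM used a prior count of 0.5. Lists are described by counts and medians, without a test. The members and lists were chosen with earlier results of these data known. Full statistics were given for the gene with the smallest p in each of 8 roles, for the highest and lowest log2 fold change with a mean of at least 5 CPM, and for Ociad1. From each list of other genes the smallest p in each direction was named, with the isoforms of pump subunits. Per-length levels divide CPM by the merged exon length in GENCODE M21 (basic), and coordinates are from RefSeq for GRCm38.p6, where all 41 symbols matched. BLAST 2.17.0 served to find near-identical genes (95% identity over at least 100 bases). The code of the fit was run on simulated data with the same dispersion for every gene, which does not measure its power on these libraries. The alternatives were DESeq2 1.42.0, DESeq2 size factors, 2 other filters, the replicate number as a block, the newer of the quasi-likelihood methods in edgeR, scaling to homeostatic genes, a neuron and astrocyte covariate, and leaving out each library.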

Additional observations from a re-analysis of the deposited data

How the results depend on the processing

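The medians below are given in the order hydrolases (−0.51), pump subunits (−0.07), and cofactors and membrane proteins (−0.35). Scaling to the homeostatic list gave 0.065, 0.77 and 0.25, and the neuron and astrocyte covariate gave 0.0056, 0.033 and 0.24. Leaving out 1 library at a time gave −1.04 to −0.06, −0.084 to 0.0020 and −0.90 to 0.0065. The homeostatic scaling moved the median of all genes from −0.05 to 0.73, with unequal shifts of single genes. It put Gla (0.065), Galc (0.31), Npc2 (0.0018), Atp6v1c1 (0.16), Atp6ap2 (0.27) and Ociad1 (0.040) above 0. As the median of all genes lay above 0 as well, these turns are not particular to a gene. The covariate turned Sgsh (0.23) and Atp6ap2 (0.033). With 1 library left out, Sgsh ran from −1.86 to 0.035 and Arsb from −1.04 to 1.51. The cause was not tested. The other alternatives kept the direction of the 3 medians and of the 11 genes with full statistics.

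The number of genes called over the whole table was 0 with edgeR (1072 at an unadjusted p under 0.05) and 88 with DESeq2. Leaving out 1 library gave 0 to 524 calls, with 48 without AD replicate 1 and 524 without AD replicate 2. With 1 library left, a group is assumed to vary like the other. With the replicate number as a block 4333 genes passed (1455 lower and 2878 higher), among them Gusb (−1.05, adjusted p = 0.0362), Lamp2 (−0.92, adjusted p = 0.0354) and Lipa (−0.88, adjusted p = 0.0430) of the 40, by edgeR's quasi-likelihood test. The deviations of same-numbered libraries correlated at 0.71 over 18672 genes, but with 2 pairs and no word in the labels the numbers were not taken to pair the samples. The other filters, DESeq2's size factors, edgeR's other quasi-likelihood method, the homeostatic scaling and the covariate gave 0 calls, with 796 to 1702 genes at an unadjusted p under 0.05. With 2 libraries a group, an exact permutation test of a single value cannot go below p = 0.333.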
